A study of Homo sapiens with 6 samples.

Results

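The nuclear genes of oxidative phosphorylation were described in peak lists of acetylated NEIL1 (AcNEIL1) from HCT116 cells. The set comprised 85 of the 18973 autosomal protein-coding genes of the RefSeq gene table (GRCh38.p14, the build of the hg38 peaks). Members were chosen by symbol: NDUFA, NDUFB, NDUFC, NDUFS or NDUFV followed by a number, SDHA to SDHD, UQCR, CYC1, the COX4I to COX8 subunits, and ATP5. Complex I contributed 35 genes, complex II 4, complex III 10, complex IV 16 and complex V 20. The set held 2 readthrough genes, NDUFC2-KCTD14 and ATP5MF-PTCD1, which share sequence with NDUFC2 and ATP5MF, and ATP5IF1, which encodes an inhibitor of the ATP synthase and no subunit. The 3 X-linked genes of the pattern, NDUFA1, NDUFB11 and COX7B, lay outside the rule.

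HCT116 is an established human colorectal cancer line, and NEIL1 is a DNA glycosylase that opens base excision repair by removing oxidised bases. The AcNEIL1 group was 3 chromatin immunoprecipitation (ChIP-seq) libraries of exponentially growing, otherwise untreated cells, made with a custom rabbit antibody to the acetylated protein. The input group was 3 libraries of HCT116 chromatin with no antibody, and each ChIP library was called against the input of its own number. Separate cultures are not named for the replicates in the labels, so their spread may be a technical one only. The series held no second condition.

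Oxidative phosphorylation takes place at the inner mitochondrial membrane. Complex I takes electrons from NADH and complex II from succinate, both pass them to ubiquinone, complex III passes them on to cytochrome c, and complex IV reduces oxygen to water. Complexes I, III and IV pump protons, and complex V, the ATP synthase, uses the resulting gradient to make ATP. Most subunits are encoded in the nucleus, and many of their promoters are known targets of the transcription factors NRF1 and GABP.

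Replicates 1, 2 and 3 listed 39898, 60233 and 49731 peaks, from ChIP libraries of 28814429 to 35222701 tags. Of these, 80, 125 and 125 peaks overlapped a member extended by 10 kb on each side, or 0.202%, 0.209% and 0.253% of the autosomal peaks. Their strength was ordinary: the authors' fold enrichment over the local background had a median of 3.51, 3.42 and 3.64 at the members, against 3.42, 3.39 and 3.61 over all autosomal peaks. A gene was divided into its ends (1000 bp on either side of either end), its body (the gene between the end windows) and its flanks (from 1000 bp to 10 kb outside). A gene was counted where a peak overlapped by at least 1 bp in at least 2 of the 3 replicates.

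AcNEIL1 peaks lay beside the oxidative phosphorylation genes more often than on them. A gene-end peak was found at 7 of the 85 members (8.24%), against 15.8% of all autosomal protein-coding genes. A body peak was found at 6 members (7.06%), against 26.7% of all genes. A flank peak was found at 32 members (37.6%), against 33.3% of all genes. Fewer members than genes at large thus carried a peak on an end or in the body, while the flank share was near that of all genes. Of the 32 members with a flank peak, 24 (75.0%) had none on an end or in the body, against 2742 of 6315 such genes overall (43.4%). A peak in any replicate and compartment was found for 47 members, against 58.5% of all genes, which left 38 members (44.7%) with none, against 41.5%.

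Each replicate gave the same order. Replicates 1, 2 and 3 had an end peak at 7, 6 and 9 members, a mean share of 8.63% ± 1.80 (SD, n = 3), against 14.5%, 20.8% and 16.2% of all genes, a mean of 17.2% ± 3.25. Body peaks were at 6, 5 and 7 members, 7.06% ± 1.18 (SD, n = 3), against 25.2%, 30.8% and 27.0% of all genes, 27.7% ± 2.88. For ends and bodies the 3 values of the members lay below the 3 values of all genes without overlap. Flank peaks were at 29, 36 and 34 members, 38.8% ± 4.24 (SD, n = 3), against 30.3%, 37.9% and 33.9% of all genes, 34.0% ± 3.82, and here the ranges overlapped, although the members were higher in each of the 3 replicates. The values of members and of all genes came from the same 3 libraries. Even an exact permutation test of 3 values a side that ignores this pairing cannot go below 0.1, so none was made. Without replicate 3, and with a peak required in both others, 4 members had an end peak.

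**Figure D1:**
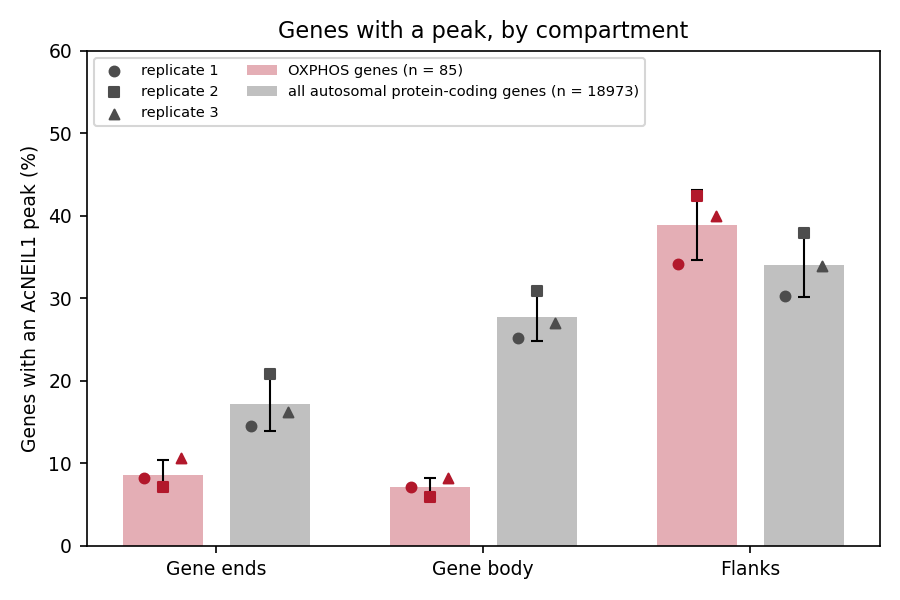
Share of genes with an AcNEIL1 peak (%) on the gene ends, in the body and in the flanks, for the 85 oxidative phosphorylation genes (red) and all 18973 autosomal protein-coding genes (grey). Bars are means with SD over 3 replicates and points are replicates; the red points lie below the grey ones for ends and body, and the 2 sets overlap in the flanks.

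Members were shorter than genes at large, with a median length of 9.94 kb against 24.8 kb, so densities per base were compared as well. Peak summits numbered 22.9 ± 9.14 per Mb of end window at the members, against 54.9 ± 9.77 at all genes (SD, n = 3). In the body they numbered 10.6 ± 3.93 per Mb at the members, against 23.3 ± 4.95 at all genes. In the flanks they numbered 58.0 ± 11.2 per Mb at the members, against 51.6 ± 9.58 at all genes. The low density was thus seen inside the genes and at their ends, whereas the flank means lay closer together than the SD between replicates. Within a replicate the flank density of the members was the higher one each time, at 45.1, 63.4 and 65.4 per Mb against 41.4, 60.4 and 53.0 for all genes.

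With distance from the gene end the density of the members had a step at about 1 kb outside the gene. Between 1 and 5 kb inside an end it was 10.7 ± 2.14 summits per Mb in the members and 54.7 ± 11.2 in all genes. In the first 1 kb outside it was 21.6 ± 17 per Mb at the members and 47.5 ± 8.12 at all genes; the member value rested on few summits and varied widely. From 1 to 5 kb outside it was 59.3 ± 6.12 per Mb at the members and 52.0 ± 10.0 at all genes, and from 20 to 50 kb outside 55.7 ± 13.4 and 44.8 ± 8.60. Within 5 kb inside an end, replicates 1, 2 and 3 listed only 9, 8 and 10 summits over all members. Divided by the flank density of the same replicate, the density there was 0.316, 0.200 and 0.242 for the members, against 1.10, 1.12 and 1.06 for all genes, and the sets of values did not overlap. This ratio was not among the planned measures.

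**Figure D2:**
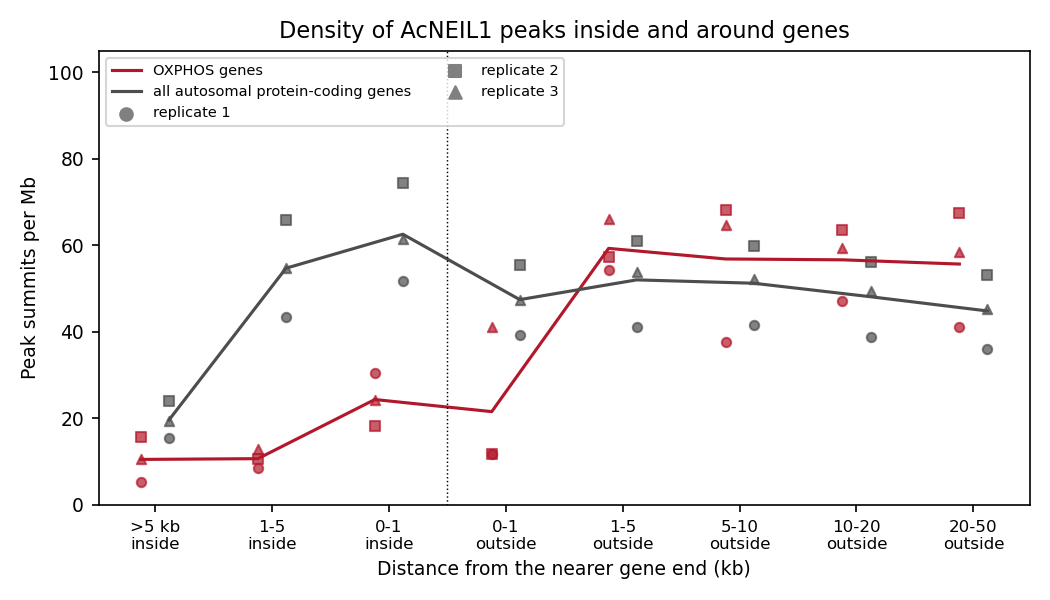
AcNEIL1 peak summits per Mb by distance (kb) from the nearer gene end, inside the gene left of the dotted line and outside it to the right, for oxidative phosphorylation genes (red) and all autosomal protein-coding genes (grey). Points are replicates and lines their means; the red line is near 10.7 per Mb at 1 to 5 kb inside and near 59.3 per Mb at 1 to 5 kb outside, while the grey line shows no such step.

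The share of end peaks lay below that of all genes in each length class. It was 2 of 19 members under 5 kb (10.5%) against 22.7% of all genes of that class, 2 of 24 members of 5 to 10 kb (8.33%) against 23.8%, and 2 of 23 members of 10 to 20 kb (8.70%) against 20.0%. It was 1 of 13 members of 20 to 50 kb (7.69%) against 14.3%, and 0 of 6 longer members against 8.30%. The share of body peaks lay below that of all genes in each class under 50 kb, at 0 of 19 members against 11.8%, 2 of 24 (8.33%) against 26.1%, 1 of 23 (4.35%) against 29.4% and 1 of 13 (7.69%) against 28.5%, in order of length. In the longest class it did not, at 2 of 6 members (33.3%) against 31.4%. The share of flank peaks lay above that of all genes only from 5 to 10 kb, at 12 of 24 members (50.0%) against 43.8%. It lay below under 5 kb, at 7 of 19 (36.8%) against 40.5%, and from 10 to 20 kb, at 8 of 23 (34.8%) against 41.7%. From 20 to 50 kb it was 4 of 13 (30.8%) against 32.6%, and in the longest class 1 of 6 (16.7%) against 21.8%. Regional peak density did not go the same way as the end peaks. Within 500 kb of the gene, members had a median of 39.8 peaks per Mb and all genes 26.2. Among genes with at least 40 peaks per Mb around them, 6 of 42 members (14.3%) had an end peak against 29.6% of all genes, 4 (9.52%) a body peak against 41.0%, and 22 (52.4%) a flank peak against 59.8%. In sparser surroundings the flank shares mostly went the other way: 2 of 16 members (12.5%) against 4.27% below 5 peaks per Mb, 2 of 7 (28.6%) against 13.8% from 5 to 10, 0 of 8 against 19.1% from 10 to 20, and 6 of 12 (50.0%) against 35.4% from 20 to 40. In these classes 1 member had an end peak, in the last of them (8.33% against 15.3%). The flank counts of 2 of these classes share a locus. NDUFC2-KCTD14 was 1 of the 2 members below 5 peaks per Mb, and NDUFC2 was 1 of the 2 from 5 to 10. Both have the same flank peaks. The median distance from a member to the nearest peak was 16.2 ± 3.86 kb, against 14.3 ± 4.34 kb for all genes (SD, n = 3).

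The member promoters that were at hand held no peak. RefSeq promoter sequences (GRCh38.p14, 250 bases before to 50 after the start) and with them a strand were at hand for 67 of the 85 members and for 15101 of all genes. The promoters of the other 18 members were not assessed. Among these 18, COX4I2 had end peaks in all 3 replicates and UQCRHL in 2. None of the 67 was overlapped by a peak in any replicate, against 1231 promoters of all genes (8.15%) in any replicate and 588 (3.89%) in at least 2. In the wider window of 1000 bp around the start, 1 of 67 members had a peak in at least 2 replicates (1.49%, ATP5ME), against 8.55% of all genes with a strand. At the far end of the gene it was 3 of 67 (4.48%; NDUFA8, NDUFA11 and COX6B2), against 8.33%. In the flanks, 9 of 67 members (13.4%) had a peak upstream, against 18.6% of all genes, and 19 (28.4%) had one downstream, against 20.4%.

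The promoter letters of the members were rich in GC, as those of most genes are. Median GC content was 61.0% in the members and 62.7% in all promoters of the table, with a median of 23 and 22 CpG dinucleotides. The core of the NRF1 recognition sequence, GCGC, any base and TGCGC in a row, was found on either strand in 17 of 67 members (25.4%), against 8.65% of all promoters. GGAAG, the core read by GABP and other ETS factors, was found on either strand in 55 members (82.1%), against 73.8% of all promoters. CCAAT, on either strand, was in 23 members (34.3%), against 36.1%, and TATAA, on the sense strand, in 9 (13.4%), against 13.2%. The NRF1 letters read much alike on both strands, so 1 stretch can match on each; the other motifs do not contain one another. A match is a run of letters and not a measurement of binding.

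The promoters of 5 members with an end peak in at least 1 replicate are shown, each promoter free of peaks itself in all 3 lists. ATP5ME (chr4:674227-674526, minus strand) and NDUFA3 (chr19:54102605-54102904, plus strand) had an end peak upstream of the start. The summits lay 853 and 707 bp before it in ATP5ME and, in replicate 3 alone, 922 bp before it in NDUFA3. NDUFA8 (chr9:122159730-122160029, minus strand) and NDUFA11 (chr19:5903741-5904040, minus strand) had their end peaks at the far end of the gene. COX6B2 (chr19:55354670-55354969, minus strand) had body peaks in each replicate and far-end peaks in replicates 2 and 3. All are written 5′ to 3′ on the gene's strand, with matches to the NRF1 core, GGAAG and CCAAT or their complements in capitals.
ATP5ME: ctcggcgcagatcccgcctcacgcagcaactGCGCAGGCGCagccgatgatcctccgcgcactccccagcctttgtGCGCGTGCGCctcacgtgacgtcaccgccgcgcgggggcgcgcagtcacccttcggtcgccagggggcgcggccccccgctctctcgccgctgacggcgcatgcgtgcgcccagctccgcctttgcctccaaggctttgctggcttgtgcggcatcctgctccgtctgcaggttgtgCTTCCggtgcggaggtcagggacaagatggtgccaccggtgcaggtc
NDUFA3: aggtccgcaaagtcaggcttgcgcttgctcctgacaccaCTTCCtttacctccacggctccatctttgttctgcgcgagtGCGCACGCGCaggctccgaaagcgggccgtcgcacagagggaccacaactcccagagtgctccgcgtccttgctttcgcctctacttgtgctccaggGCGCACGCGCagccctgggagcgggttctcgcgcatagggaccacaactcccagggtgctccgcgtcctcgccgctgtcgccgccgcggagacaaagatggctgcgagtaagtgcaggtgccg
NDUFA8: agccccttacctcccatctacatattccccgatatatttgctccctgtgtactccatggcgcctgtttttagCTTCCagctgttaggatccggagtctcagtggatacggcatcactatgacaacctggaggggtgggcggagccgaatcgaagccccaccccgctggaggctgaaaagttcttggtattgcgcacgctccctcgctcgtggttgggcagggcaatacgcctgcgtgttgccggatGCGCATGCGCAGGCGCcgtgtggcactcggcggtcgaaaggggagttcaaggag
NDUFA11: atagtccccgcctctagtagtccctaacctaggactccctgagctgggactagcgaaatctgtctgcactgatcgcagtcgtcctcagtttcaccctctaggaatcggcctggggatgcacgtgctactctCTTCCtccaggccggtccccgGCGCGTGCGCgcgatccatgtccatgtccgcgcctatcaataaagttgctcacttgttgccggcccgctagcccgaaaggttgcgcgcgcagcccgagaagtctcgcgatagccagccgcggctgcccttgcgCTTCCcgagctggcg
COX6B2: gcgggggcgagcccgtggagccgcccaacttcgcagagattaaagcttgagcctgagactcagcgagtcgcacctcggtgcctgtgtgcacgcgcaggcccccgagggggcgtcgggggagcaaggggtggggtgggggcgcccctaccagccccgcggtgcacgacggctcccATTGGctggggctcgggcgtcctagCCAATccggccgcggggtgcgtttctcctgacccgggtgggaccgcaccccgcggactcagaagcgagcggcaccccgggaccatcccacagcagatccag
The first 4 hold the NRF1 letters, and the COX6B2 promoter holds neither these nor GGAAG but CCAAT once on each strand. NDUFB10 and NDUFC2-KCTD14, each with an end peak in 1 replicate, also had a promoter at hand. Their promoters are not shown, and neither holds the NRF1 letters.

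End peaks in all 3 replicates were found at 4 members, against 9.38% of all genes, and in any replicate at 11, against 26.3%. In complex I, NDUFA11 and NDUFA8 were among those with peaks in all 3. NDUFA11, an accessory subunit of the membrane arm (chromosome 19, 5891229 to 5903790), had its peaks just past the far end, with summits 1125, 1135 and 1270 bp beyond it in replicates 1, 2 and 3. Their fold was 3.87, 3.66 and 3.14 and their deposited pileup 21, 24 and 20.99, and all 3 peaks overlapped one another. The 3 replicates thus placed this peak within 145 bp, and no peak lay in the gene itself.

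NDUFA8, another accessory subunit (chromosome 9, 122132466 to 122159779), had peaks on both sides of its far end. In replicate 1 the end peak had a fold of 2.73, in replicate 2 the 2 end peaks had 5.52 and 3.43, and in replicate 3 they had 3.82 and 3.55. Replicate 2 was the highest, and its strongest summit lay 661 bp past the gene. Replicates 1 and 3 also listed a body peak, of fold 4.04 and 4.69, whose summits lay 1399 and 1466 bp inside the far end.

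Complex IV had COX4I2 and COX6B2, the second copies of a regulatory and of a cytochrome c-facing subunit. COX4I2 (chromosome 20, 31637912 to 31645006) had a strongest end peak of fold 4.28, 4.54 and 3.55 in replicates 1, 2 and 3, or 4.12 ± 0.512 (SD, n = 3), at its lower-coordinate end. All pairs of replicates overlapped there. The signal was listed as 3 short peaks in replicates 1 and 3 and as a single one of 2595 bp in replicate 2.

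COX6B2 (chromosome 19, 55349704 to 55354719), described as a testis form, had 1, 3 and 3 peaks overlapping its body in replicates 1, 2 and 3, with a strongest fold of 3.80 in replicate 1, 4.68 in replicate 2 and 3.77 in replicate 3. Peaks reached the far end in replicates 2 and 3 only, at a fold of up to 4.19 and 3.77. The flank peaks, at 4.92 ± 1.36 (SD, n = 3), extended over the neighbouring genes.

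UQCRHL in complex III and ATP5ME in complex V had end peaks in 2 replicates. UQCRHL (chromosome 1, 15807374 to 15807649), an intronless copy of the hinge protein gene UQCRH only 276 bp long, had a peak of fold 2.87 in replicate 2 and peaks of 4.67 and 3.97 in replicate 3, and these did not overlap. ATP5ME (chromosome 4, 672436 to 674276), a small membrane subunit of the ATP synthase, had a peak of fold 3.91 in replicate 1 and 3.43 in replicate 3, with summits 853 and 707 bp before its start. Both lay inside the neighbouring gene MYL5, and replicate 2 had its nearest peak 1267 bp before the start. End peaks in a single replicate were found at CYC1, the cytochrome c1 gene (fold 2.61 in replicate 1), NDUFA3 (3.27 in replicate 3), NDUFB10 (2.17 in replicate 1) and the readthrough NDUFC2-KCTD14 (3.50 in replicate 3).

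**Figure D3:**
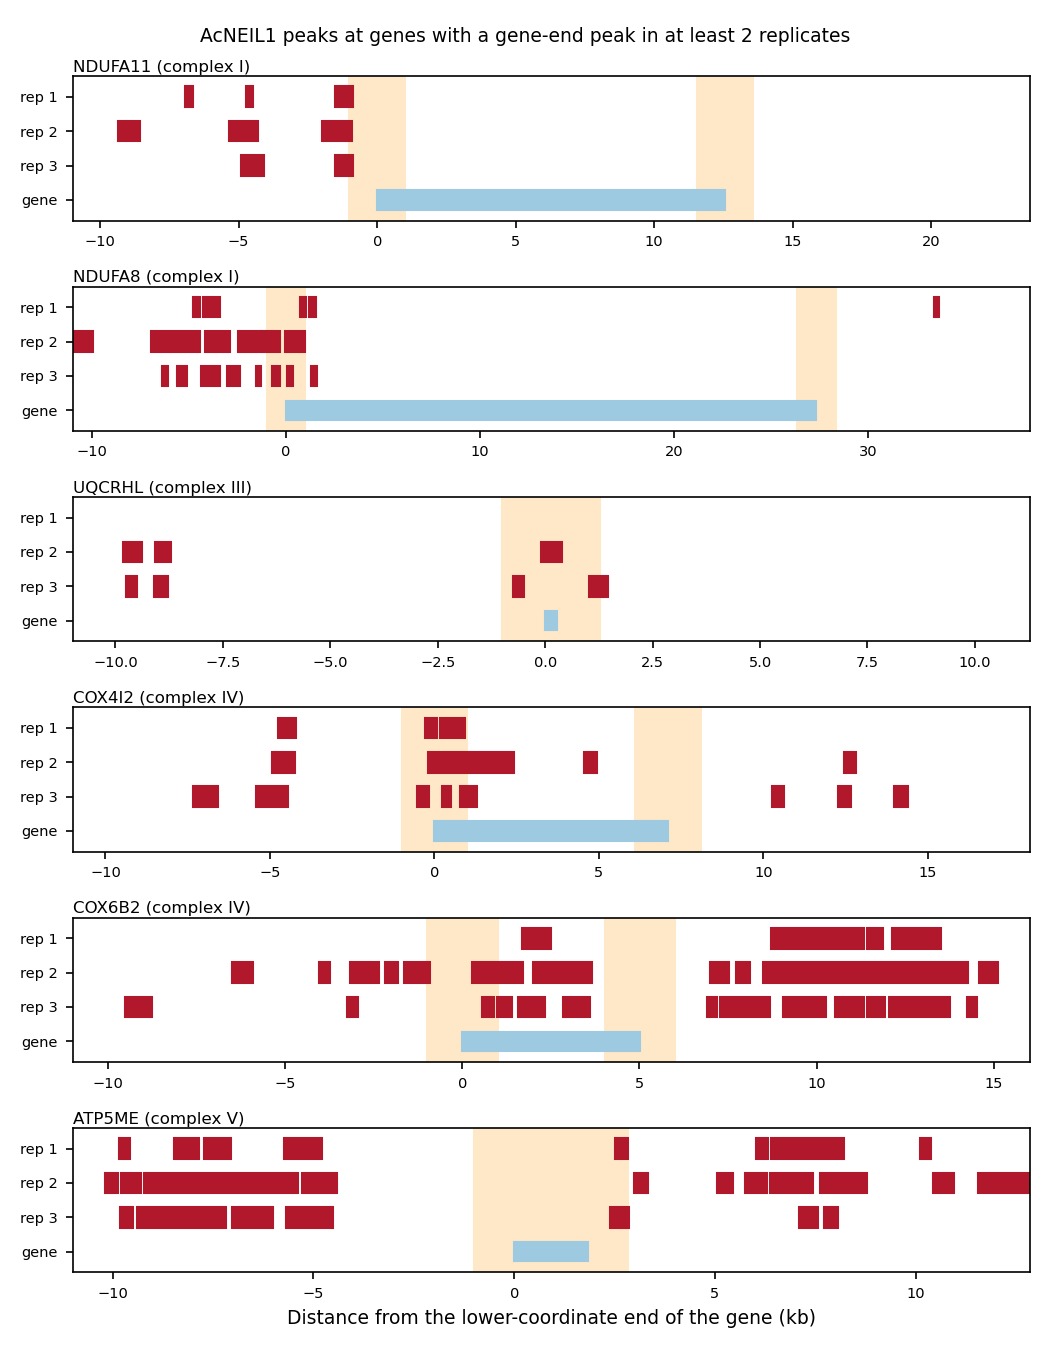
AcNEIL1 peaks (red) of replicates 1 to 3 at 6 of the 7 members with an end peak in at least 2 replicates, against distance (kb) from the lower-coordinate end of the gene. The gene is blue and the end windows are shaded; in NDUFA11 and ATP5ME the gene itself carries no peak, and COX6B2 carries body peaks in every replicate.

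Body peaks in at least 2 replicates were confined to complexes I and IV, where NDUFA10, NDUFA8, NDUFC2-KCTD14, COX4I2 and COX6B2 were among the genes that had them. NDUFA10, an accessory subunit and at 132.9 kb the longest gene of complex I, had 4, 11 and 5 peaks in replicates 1, 2 and 3. The strongest had a fold of 4.26, 4.30 and 3.82, or 4.13 ± 0.268 (SD, n = 3). All of them lay 82040 to 126013 bp from its start, and neither end had a peak. The body peaks of NDUFC2-KCTD14 lay outside NDUFC2, some of them in KCTD14, so NDUFC2, an accessory subunit of the membrane arm, had no body peak of its own.

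NDUFS4, an accessory subunit mutated in Leigh syndrome and almost as long at 122.7 kb, had no peak in any replicate, and the nearest lay 316, 529 and 527 kb away. COX7B2 (174.4 kb), the longest of complex IV, had none within 611 kb. UQCRC2 (30.3 kb), the longest of complex III, and SDHA (50.4 kb), that of complex II, had no end or body peak either. ATP5MF-PTCD1 (49.4 kb), the longest of complex V, had flank peaks only. The long members thus ranged from 11 body peaks in 1 replicate to none.

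Genes with flank peaks outnumbered those with an end or body peak, at 32 against 9 members, and at 6315 against 5797 of all genes. NDUFS3, a core subunit of complex I (chromosome 11, 47579074 to 47584562), had 7, 7 and 6 flank peaks in replicates 1, 2 and 3, and their strongest fold was 4.60, 6.05 and 5.07, a mean of 5.24 ± 0.741 (SD, n = 3). All lay downstream, nearly all of them in FAM180B and C1QTNF4. UQCRC1, a core subunit of complex III (chromosome 3, 48599002 to 48609646), had a strongest flank peak of fold 4.42, 6.34 and 4.76, a mean of 5.17 ± 1.02, and these lay downstream in COL7A1, the collagen VII gene. ATP5ME had 7, 11 and 7 flank peaks over MYL5, SLC49A3 and PDE6B, with a strongest fold of 4.22, 5.83 and 5.34, a mean of 5.13 ± 0.826. At each of these the strongest value was that of replicate 2, and none of these flank peaks touched the gene itself.

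In complex IV the strongest flank peak of COX6B1, the first-copy partner of COX6B2 (chromosome 19, 35648323 to 35658782), had a fold of 3.61, 7.34 and 3.69 in replicates 1, 2 and 3. Its mean of 4.88 ± 2.13 (SD, n = 3) rested on replicate 2, and the 3 summits lay 7664 to 7866 bp downstream in UPK1A, a urothelial surface gene. In complex II only SDHB, the iron-sulphur subunit, had flank peaks in 2 replicates, of fold 3.77 in replicate 1 and 3.97 in replicate 3. SDHA, the flavoprotein, had a flank peak of fold 2.39 in replicate 3 alone, and SDHC and SDHD, the membrane anchors, had none. Their nearest peaks lay 45.8, 24.3 and 30.2 kb from SDHC and 67.1, 107 and 158 kb from SDHD.

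Flank peaks in all 3 replicates were found at 23 members (27.1%), against 22.9% of all genes. Beside NDUFS3, UQCRC1, ATP5ME, COX6B1 and COX6B2, these included in complex I the core subunits NDUFV1 (fold 4.14 ± 0.250) and NDUFS8 (4.07 ± 1.41), the accessory subunits NDUFA3 (4.24 ± 0.875), NDUFA6 (3.47 ± 0.168), NDUFB10 (4.24 ± 0.180), NDUFC2 (4.55 ± 0.650) and NDUFV3 (4.35 ± 0.522), and NDUFC2-KCTD14, as well as NDUFA8 and NDUFA11 (SD, n = 3). In complex IV they were at COX4I1 and COX4I2. In complex V they were at ATP5F1C (3.46 ± 0.0925), the gamma subunit of the rotor, ATP5F1E (3.17 ± 0.457), the epsilon subunit, ATP5MGL, a second copy of a membrane subunit, and the pair ATP5MF and ATP5MF-PTCD1, which share the same peaks (4.34 ± 0.890). The members with flank peaks in 2 replicates were the accessory subunits NDUFA13, NDUFB1 and NDUFB7, the core subunit NDUFS1, SDHB, UQCRHL, the complex IV subunits COX6A1 and COX8A, and ATP5MJ, a small protein of the ATP synthase. Of the flank summits of the members, 36 of 69, 57 of 97 and 55 of 100 in replicates 1, 2 and 3 lay inside another protein-coding gene, a mean of 55.3% ± 3.31, against 44.0% ± 1.01 for all genes (SD, n = 3). A summit in the flanks of more than 1 gene, such as those shared by ATP5MF and ATP5MF-PTCD1, was counted for each gene.

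**Figure D4:**
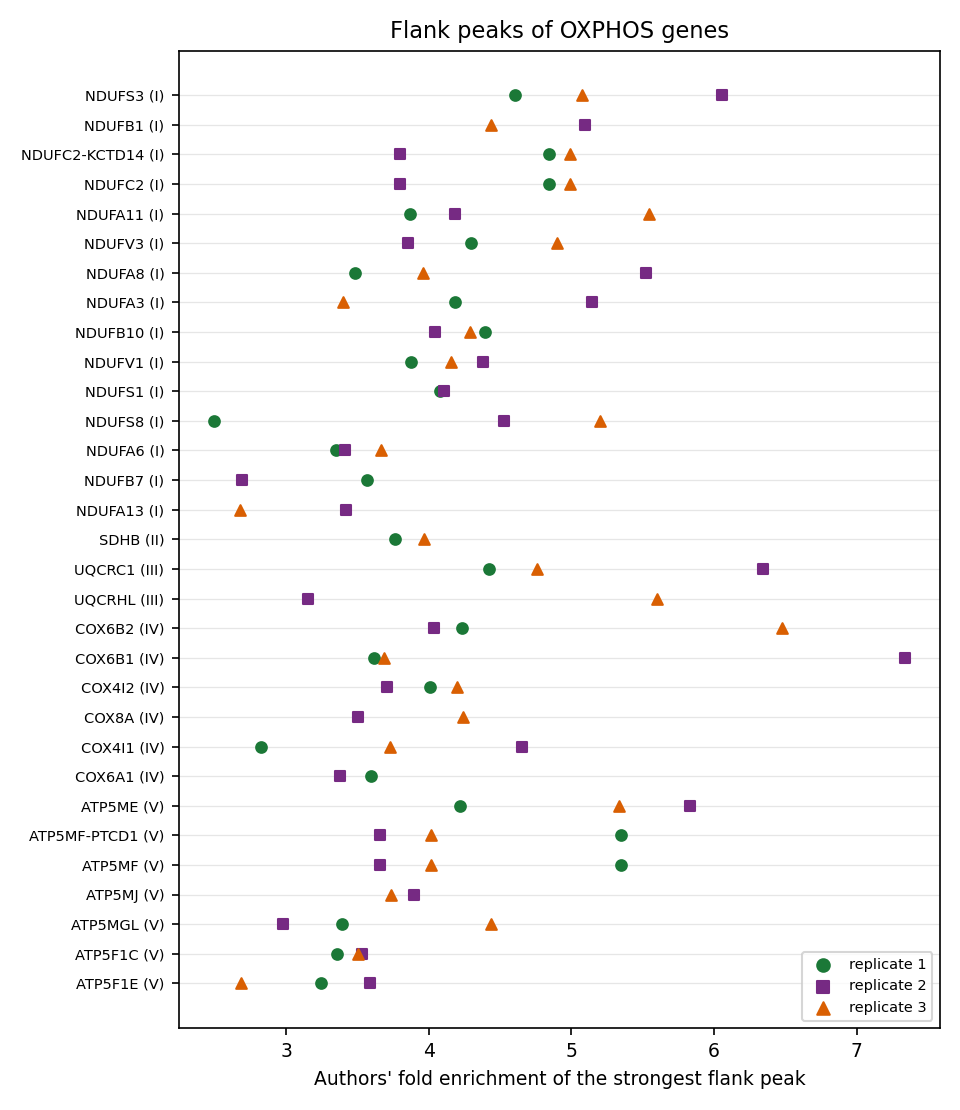
Authors' fold enrichment of the strongest flank peak in each replicate (symbols) for 31 of the 32 members with a flank peak in at least 2 replicates, grouped by complex I to V. Most values lie between 3 and 6, and the highest is that of COX6B1 in replicate 2, at 7.34, where replicates 1 and 3 have 3.61 and 3.69.

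By complex the counts were small, and those of complexes II and III rest on 4 and 10 genes. End peaks were at 3 of 35 genes of complex I, 0 of 4 of complex II, 1 of 10 of complex III, 2 of 16 of complex IV and 1 of 20 of complex V, against 15.8% of all genes. With so few genes, these counts do not show a low share for each complex on its own. Body peaks were at 4, 0, 0, 2 and 0 genes in the same order, against 26.7%. Flank peaks were at 16 genes of complex I (45.7%), 1 of complex II (25.0%), 2 of complex III (20.0%), 6 of complex IV (37.5%) and 7 of complex V (35.0%), against 33.3%. A peak in any compartment was at 17, 1, 2, 6 and 7 genes of complexes I to V, in all 33 of 85 members (38.8%), against 46.1% of all genes. By this rule complex I had the highest flank share; the order of the smaller complexes changed with the rule, and in replicate 3 complex II (50.0%) lay above complex I (45.7%). The counts of the small complexes hung on single libraries: with both remaining replicates required, complex II had 0 genes with a peak without replicate 1 or without replicate 3, and complex III had 1 without replicate 2 or without replicate 3.

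Across replicates the flank share of complex I was 46.7% ± 1.65 (SD, n = 3), above the 34.0% ± 3.82 of all genes in each replicate. It was 25.0% ± 25.0 in complex II, 23.3% ± 11.5 in complex III, 37.5% ± 6.25 in complex IV and 36.7% ± 7.64 in complex V. The means of complexes IV and V lay closer to that of all genes than the SD between replicates, complex IV being higher in each replicate, at 31.2%, 43.8% and 37.5%, and in complex II it ranged from 0 to 50.0%. These SDs are over replicates scored on the same genes and do not measure a spread between genes. NDUFC2 and NDUFC2-KCTD14, both counted in complex I, share their flank peaks. Per Mb of flank, complex I had 70.9 ± 12.0 summits, complex II 27.8 ± 24.1, complex III 31.5 ± 6.42, complex IV 66.0 ± 30.3 and complex V 48.1 ± 4.24, against 51.6 ± 9.58 for all genes. Complex I also had the shortest median distance to a peak, 10.5 ± 2.86 kb, although its regional density, a median of 26.5 peaks per Mb, was the lowest of the complexes and near the 26.2 of all genes.

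**Figure D5:**
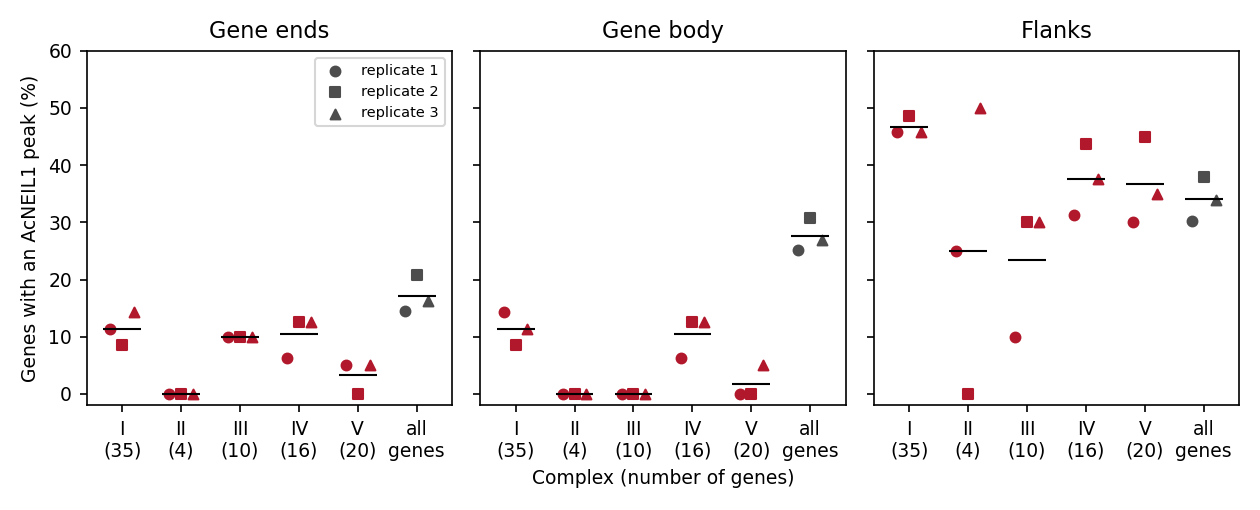
Share of genes with an AcNEIL1 peak (%) on ends, in the body and in the flanks for complexes I to V (number of genes in brackets) and for all autosomal protein-coding genes; points are replicates and lines their means. Complex I lies near 46.7% in the flanks in every replicate, while complex II, with 4 genes, ranges from 0 to 50.0%.

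Several subunits have a second copy that is tissue-restricted or lacks introns, and 3 of the 7 end peaks were at these. Of 8 such copies, COX4I2, COX6B2 and UQCRHL had an end peak (37.5%), against 15.8% of all genes, and the other members had 4 of 77 (5.19%). Their first copies, COX4I1, COX6A1, COX6B1, COX7A2, COX8A, UQCRH and ATP5MG, had no end or body peak in any replicate. Flank peaks were found at 4 of 8 second copies (COX4I2, COX6B2, UQCRHL and ATP5MGL) and 4 of 7 first copies (COX4I1, COX6A1, COX6B1 and COX8A). COX6A2, the muscle form, had a flank peak of fold 4.66 in replicate 3 alone, and COX7A1, COX7B2 and COX8C had none. The copies are few and 1.35 kb long at the median, and UQCRHL is close in sequence to UQCRH, so its peaks are uncertain.

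Other mitochondrial gene lists also had few end and body peaks, while their flank shares varied. Of 77 autosomal genes of mitochondrial ribosomal proteins, which translate the subunits encoded in mitochondrial DNA, 2 had an end peak (2.60%), 1 a body peak (1.30%) and 28 a flank peak (36.4%). The 2 were MRPL23 (fold 4.42 ± 1.13) and MRPL43 (2.80 ± 0.146; SD, n = 3). Of 51 assembly factors of the complexes, 1 had an end peak (1.96%; UQCC1, an assembly factor of complex III), 2 a body peak and 11 a flank peak (21.6%). Of 13 autosomal citric acid cycle genes, none had an end peak, 1 a body peak (OGDH, the oxoglutarate dehydrogenase) and 4 a flank peak (30.8%). Of 11 regulators and carriers, none had an end peak, 2 had a flank peak (18.2%) and 2 had a body peak, PPARGC1B and PPRC1, both coactivators of mitochondrial gene programmes. End shares lay below the 15.8% and body shares below the 26.7% of all genes in each list, of which the last 2 are small. The flank share lay above the 33.3% of all genes in the ribosomal proteins, as in the members, and below it in the other lists.

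The 38 members without a peak were 13 genes of complex I, 2 of complex II, 5 of complex III, 8 of complex IV and 10 of complex V. Their surroundings had a median of 16.0 peaks per Mb, against 49.7 around members with a flank peak only and 73.1 around those with an end or body peak. All genes went the same way, with a median of 4.42 around genes without a peak and 57.1 around those with an end or body peak. Some of the 38 members nevertheless lay in dense surroundings. ATP5MK (chromosome 10), a small membrane subunit of the ATP synthase, had 155 peaks per Mb within 500 kb. The peak nearest to ATP5MK lay 57.5, 57.4 and 24.0 kb away in replicates 1, 2 and 3. ATP5PD (chromosome 17), a stalk subunit, had 115 peaks per Mb around it, and COX5A (chromosome 15), a matrix-side subunit of complex IV, had 94.9. COX4I1 (chromosome 16) had 200.0 peaks per Mb around it and flank peaks in each replicate, and no peak within 1000 bp of the gene.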

How the data were processed

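The 3 AcNEIL1 peak lists were analysed; the inputs entered through these calls only. Per the file headers, the authors ran MACS 2.1.1.20160309 on each replicate against its own input, at a q-value cutoff of 0.05 and with at most 2 tags kept per position. The deposited signal is the pileup at the summit, the deposited −log10 values are those of p and q, and the deposited fold is the ratio of pileup to local background; all are the authors' own values per peak. Peaks were ranked by fold within a list only. Folds of the strongest peak at a gene are given per replicate and averaged as a description; the caller scaled each pair of libraries on its own, so levels of different replicates need not share 1 scale. Depth after the duplicate filter was 31921768, 28814429 and 35222701 ChIP tags and 32877739, 37772127 and 33606858 input tags in replicates 1, 2 and 3. Where a gene has no peak, none passed the cutoff there at this depth, and its level is unknown.

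Gene positions were those of RefSeq (GRCh38.p14) on chromosomes 1 to 22, 1-based; the table gives no exons, and strand came from the promoter table (1 promoter a gene, the one nearest the gene's outer end). Python 3.11.15, numpy 2.4.6, pandas 2.3.3 and matplotlib 3.10.9 were used, and the overlap steps were checked on simulated data. Members and lists were chosen with earlier results of these data known, so shares are descriptions without a test. Named were members with an end peak in at least 1 replicate, with a body or flank peak in at least 2, the second copies and their partners, complex II, and the longest member of each complex; members without a peak in dense surroundings were chosen after their values were seen. A result the rule takes is counted but not reported singly here. Tried as alternatives were a stricter q, lists cut to equal length, other overlaps, windows and replicate numbers, and leaving out each replicate. Also tried was leaving out the readthrough genes with ATP5IF1, or chromosomes 8, 10, 16 and 17.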

Additional observations from a re-analysis of the deposited data

How the results depend on the processing

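Direction was stable over 15 alternative settings: in each, the share of members with an end or a body peak lay below that of all genes, and the share with a flank peak lay above it. The member share was 0.399 to 0.659 times that of all genes for ends, 0.198 to 0.326 times for bodies and 1.08 to 1.30 times for flanks. Gene length was not held fixed in these settings. By length class, the flank share of the members was the higher one only from 5 to 10 kb. Over the settings the counts themselves moved more. At a −log10 q of at least 5, 3 members had an end peak, 3 a body peak and 18 a flank peak, and 0 genes of complex II, 1 of complex III and 3 of complex V had any peak. With end windows of 500 and 2000 bp, 4 and 12 members had an end peak. With a flank of 5 kb, 21 members had a flank peak and 4 genes of complex V any peak; with a flank of 20 kb, 5 genes of complex III, 10 of complex IV and 12 of complex V had any peak. With a peak in any replicate, 11 members had an end peak, and 2 genes of complex II and 5 of complex III any peak. With a peak in all 3 replicates, 4 members had an end peak, and 0 genes of complex II and 1 of complex III any peak. With equal numbers of peaks, 1 gene of complex III had any peak. Leaving out 1 replicate and requiring both others gave 4 to 6 members with an end peak, lowest without replicate 3, 0 to 1 genes of complex II, lowest without replicate 1 or 3, and 1 to 2 of complex III, lowest without replicate 2 or 3. The ratio of density inside the members to that in their flanks, 0.253, was not among the planned measures. It was 0.221 to 0.279 with a replicate left out. The cause of these moves was not tested beyond what each setting changes by construction. No paired analysis was possible because the inputs, which share their numbers with the ChIP libraries, have no values of their own in the peak lists; members and all genes were set side by side within each replicate. Pileups at summits were low, so places of weaker enrichment may have been missed, and the lists do not show the level at genes without a peak.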

Other observations

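The X-linked subunit genes NDUFA1, NDUFB11 and COX7B had no peak in any compartment or replicate. COXFA4, formerly NDUFA4, and its copy COXFA4L3 had none either. COXFA4L2, formerly NDUFA4L2, a copy known to be induced by hypoxia, had an end peak in 1 replicate and flank peaks in all 3.

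Pseudogenes named after oxidative phosphorylation genes numbered 193 on the autosomes. An end peak in at least 2 replicates was found at 4 of them (2.07%), against 4.06% of all 15332 autosomal pseudogenes, and a flank peak at 22 (11.4%), against 12.2%. The 4 were NDUFB4P11 and COX6CP16, each in 3 replicates, and COX6CP18 and COX8BP, each in 2. Reads of such copies may be hard to place, and the extent of this was not tested.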
